A study of Mus musculus with 36 samples.

Results

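Kinesins are described here across 10 mouse cell populations, with motors of the mitotic spindle set against motors that carry cargo, many of them best known from neurons. Members are all genes of the expression table with a kinesin symbol (Kif or Kifc followed by the member's number and letter), which gave 39 of 19909 genes. By their known roles, 12 were placed among mitotic kinesins, 17 among transport and neuronal kinesins, 6 among kinesins of cilia and hedgehog signalling, and 4 in no list. The rule reads only gene symbols, and the lists follow known roles.

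Kinesins are ATP-driven motors that step along microtubules, most of them towards the plus end, and some members instead dismantle microtubule ends. In dividing cells they push spindle poles apart, move chromosomes and build the midzone at which the cell is cut. In cells that extend processes, others haul vesicles, mitochondria and cilium components, and axon-bearing cells rely on them most, since their cargo travels far from the cell body. The subependymal zone (SEZ) lines the brain's lateral ventricles and holds both kinds of cell, with stem cells and their dividing progeny beside migrating young neurons.

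All libraries came from C57BL/6 mice aged 8 weeks. Flow cytometry of SEZ homogenate gave the populations labelled qNSC, pNSC, aNSC and NPC1 (4 libraries each) and NPC2, NB1, NB2 and Other (3 libraries each). Neurospheres, floating cultures of SEZ cells grown with EGF and FGF, gave DFFDA_H and DFFDA_L (4 libraries each) at passage 4, sorted 4 days after loading with the dye DFFDA and said by the submitters to differ in proliferative kinetics. The labels neither expand the population names nor give the sorting gates, and they do not say whether each library is a separate animal, so p-values reflect only the scatter among the libraries at hand.

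Values are the deposited log2 expression values, which behave like log2 CPM (read counts put on one common scale), and a difference of 1 is a 2-fold change. The fit pooled the spread of all 28 fresh libraries, or of the 8 cultured ones, and genes were called changed at a Benjamini-Hochberg adjusted p below 0.05 in limma, over all genes tested. Of the kinesins, 38 were tested in fresh cells, all but Kif26b, and 34 in culture, where Kif5a, Kifc2, Kif27, Kif26a and Kif26b were too low. Replicates correlated over all genes at 0.88 or more in every group. The library qNSC replicate 1 stood apart, with 3932 genes at its floor of -2.18, the lowest value a library can show, among them Kif11, Kif15, Kif20b, Kif26a and Kif26b. Cycling markers (6 genes such as Mki67) had a summed log2 level of 6.50 to 6.91 in qNSC, 8.35 to 10.06 in pNSC and 11.19 to 11.69 over aNSC, NPC1, NPC2 and NB1. It was 8.84 to 9.02 in NB2 and Other. Neuroblast markers (8 genes such as Dcx) had their highest sums in NB2, 12.91 to 13.11.

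**Figure D1:**
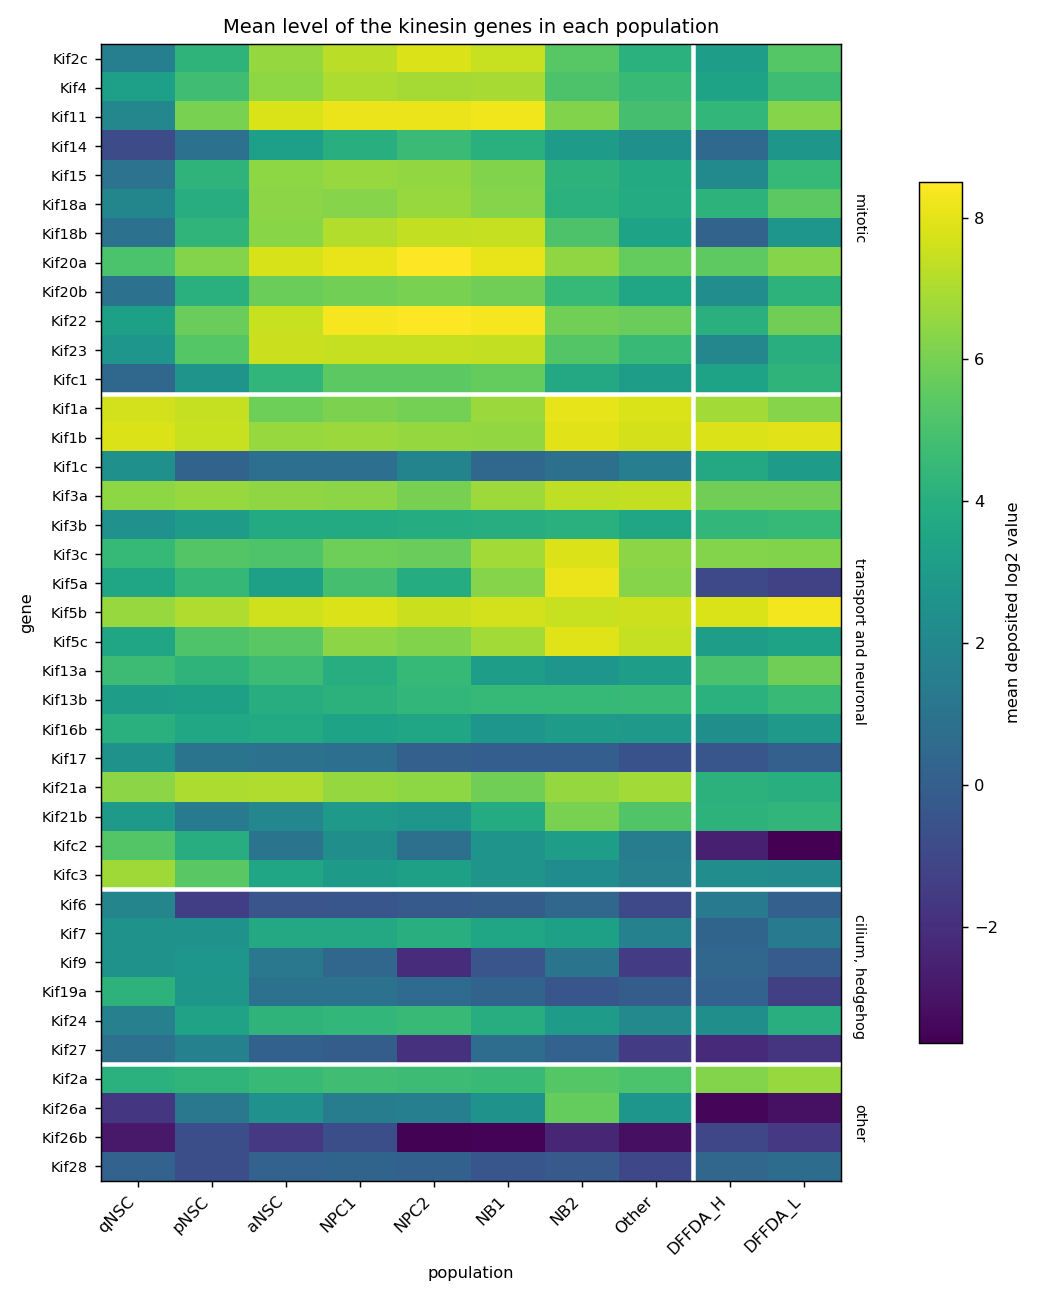
Mean deposited log2 value of each of the 39 kinesin genes (rows, by role) in each of the 10 populations (columns); white lines part the roles and the cultured from the fresh populations. Among the fresh populations the mitotic rows are lowest in qNSC, and Kif18b and Kif23 are lower still in DFFDA_H. The mitotic rows are brightest from aNSC to NB1, and Kif5a, Kif5c, Kif3c and Kif21b are brightest in NB2.

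The mitotic kinesins moved as one block: all 12 rose from qNSC to pNSC, all 12 rose again from pNSC to aNSC, none changed by the test from aNSC through NPC1 and NPC2 to NB1, and 9 fell from NB1 to NB2. Their mean log2 level was 1.84 ± 0.52 (SD, n = 4) in qNSC, 4.38 ± 0.57 (SD, n = 4) in pNSC and 6.35 ± 0.02 (SD, n = 4) in aNSC. It was 6.81 ± 0.12 (SD, n = 4) in NPC1, 6.99 ± 0.04 (SD, n = 3) in NPC2 and 6.83 ± 0.15 (SD, n = 3) in NB1. In NB2 it stood at 4.92 ± 0.04 (SD, n = 3), and in Other at 4.14 ± 0.25 (SD, n = 3), so that NB2 and Other both lay near pNSC. In bulk libraries of sorted cells, a smaller share of dividing cells and less RNA in each dividing cell cannot be told apart.

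From qNSC to pNSC the median rise of the 12 was 2.52 on the log2 scale, against a median of -0.05 over all genes tested. Across all 17788 genes, 14.2% were called higher and 8.06% lower. With only these groups fitted 10 of the 12 were called, without Kif14 (limma adjusted p = 0.162) and Kifc1 (limma adjusted p = 0.0644). The largest fitted rises were those of Kif11, Kif18b and Kif15, but without qNSC replicate 1 they were those of Kif18b (3.12), Kif22 (2.85) and Kif23 (2.82). Kif20a rose least, by 1.16 ± 0.15 (SE). Neuroblast markers were also higher in pNSC than in qNSC for 7 of 8 (median 1.89), as were microglia markers for 4 of 10, and their part in the kinesin values was not tested. Libraries of the groups did not overlap for 11 of the 12. Kif14, a cytokinesis motor, was the exception, with 1 pNSC library below the highest qNSC library. The share of all genes without overlap was not worked out, here or in later comparisons, so such counts only describe the members. From pNSC to aNSC the median rise was 1.91, against 0.22 over all genes, of which 28.4% were called higher and 19.9% lower, and no mitotic kinesin overlapped between these groups. In this comparison 58.8% of all calls were higher, and 47.4% when the libraries were centred by log ratios instead. The 12 mitotic kinesins were called higher under that centring too, apart from Kif11.

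Kif11 is the bipolar kinesin-5 (Eg5) that slides spindle microtubules apart. Its log2 values were -2.18, 3.24, 3.05 and 3.72 in qNSC, 7.20, 5.89, 5.93 and 5.21 in pNSC and 7.80, 7.84, 7.88 and 7.81 in aNSC. They were 8.12, 8.14, 8.13 and 8.15 in NPC1, 8.27, 8.01 and 8.09 in NPC2, 8.33, 8.24 and 8.11 in NB1 and 6.00, 6.35 and 6.25 in NB2. The 4 aNSC libraries lay above every pNSC library, and one qNSC library lay far below the rest, at its floor. Kif11 was 4.10 ± 0.72 (SE) higher in pNSC than in qNSC (limma adjusted p = 0.000168), 2.72 higher without qNSC replicate 1 and 4.68 higher without qNSC replicate 4. Kif15 and Kif20b, also at the floor in qNSC replicate 1, were 3.26 and 3.19 higher in pNSC, and 2.21 and 2.17 higher without it. The further rise to aNSC, 1.77 ± 0.72 (SE), sat close to the threshold (limma adjusted p = 0.0429, range 0.00139 to 0.125 over the alternatives, 5 of 14 of them keeping the call). Leaving out any aNSC library, or pNSC replicate 2, 3 or 4, ended that call.

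Kif23 (MKLP1) is the motor of centralspindlin, the complex that bundles midzone microtubules for cytokinesis. Its log2 values were 3.43, 1.69, 2.69 and 3.06 in qNSC, 5.95, 5.44, 5.31 and 4.50 in pNSC and 7.48, 7.44, 7.50 and 7.64 in aNSC. From there they kept within a narrow band, with 7.27, 7.59, 7.39 and 7.55 in NPC1, 7.41, 7.50 and 7.35 in NPC2 and 7.37, 7.37 and 7.45 in NB1, before NB2 gave 5.18, 5.28 and 5.25. Every library from aNSC to NB1 lay above every library of qNSC, pNSC and NB2. Kif23 rose by 2.59 ± 0.26 (SE) from qNSC to pNSC (limma adjusted p = 9.9e-08) and by 2.21 ± 0.26 (SE) from pNSC to aNSC (limma adjusted p = 1.23e-07).

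Kif2c (MCAK) dismantles microtubule ends at centromeres and corrects faulty chromosome attachments. Log2 values for it were -0.01, 1.55, 2.47 and 2.35 in qNSC, 5.04, 3.61, 4.69 and 3.77 in pNSC and 6.70, 6.60, 6.45 and 6.62 in aNSC. Later populations read 7.29, 7.28, 7.30 and 7.13 (NPC1), 7.94, 7.90 and 7.69 (NPC2), 7.38, 7.41 and 7.67 (NB1) and 5.38, 5.40 and 5.32 (NB2). Levels climbed without overlap from qNSC up to NPC2, although the steps from aNSC to NPC1 (0.66 ± 0.35 SE, limma adjusted p = 0.239) and NPC1 to NPC2 (limma adjusted p = 0.678) were not called. The rises to pNSC (6.44-fold, limma adjusted p = 4.55e-06) and to aNSC (4.97-fold, limma adjusted p = 6.23e-06) were.

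Kif22 (Kid) is a chromokinesin that pushes chromosome arms away from the poles. It read 4.45, 2.48, 2.89 and 3.30 in qNSC, 6.58, 5.26, 6.06 and 5.04 in pNSC and 7.45, 7.34, 7.57 and 7.54 in aNSC. In NPC1 the log2 values were 8.40, 8.41, 8.31 and 8.18, in NPC2 8.45, 8.63 and 8.43, in NB1 8.30, 8.26 and 8.43 and in NB2 5.87, 5.96 and 5.91. The groups rose without overlap up to NPC1, and all NB2 libraries fell back among those of pNSC. The step from qNSC to pNSC was 5.49-fold (limma adjusted p = 8.6e-07) and that from pNSC to aNSC 3.34-fold (limma adjusted p = 1.9e-05).

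Kif18b, which shortens astral microtubules, had log2 values of -0.01, 0.48, 2.31 and 0.71 in qNSC, 5.34, 4.02, 3.93 and 3.86 in pNSC and 6.38, 6.53, 6.16 and 6.28 in aNSC. It reached 7.11, 7.05, 7.07 and 7.26 in NPC1, 7.63, 6.96 and 7.53 in NPC2 and 7.51, 7.51 and 7.28 in NB1, and NB2 gave 4.81, 5.37 and 5.20. One pNSC library, replicate 1, stood well above the other 3, and no pNSC library reached the aNSC ones. Kif18b rose 10.7-fold from qNSC to pNSC (limma adjusted p = 2.3e-07) and 4.14-fold from pNSC to aNSC (limma adjusted p = 5.24e-05).

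Kifc1 (HSET) is the minus-end-directed motor that focuses spindle poles. Its log2 values ran 1.77, 0.00, -0.81 and 0.71 in qNSC, 4.04, 1.93, 2.67 and 1.96 in pNSC and 4.41, 4.35, 4.45 and 4.14 in aNSC. They continued at 5.78, 5.48, 5.26 and 5.30 in NPC1, 5.49, 5.47 and 5.32 in NPC2, 5.64, 5.39 and 5.85 in NB1 and 3.69, 3.77 and 3.62 in NB2. All NPC1 libraries lay above all aNSC libraries (1.12 ± 0.41 SE), which was not called (limma adjusted p = 0.071). Kifc1 is uncertain as a single gene, since its transcript matches that of Kifc5b at 96.84% over 2312 bases and reads may be split between them. Kifc5b averaged 0.62 in qNSC, -0.10 in pNSC, 2.65 in aNSC and 3.89 in NPC1, so unlike Kifc1 its mean was not higher in pNSC than in qNSC.

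Kif20a (MKLP2), which takes the chromosomal passenger complex to the midzone, had the highest level of the 12 in qNSC also per kilobase of exon (2.96 on the log2 scale per kb, next Kif22 at 0.98). It shares 1271 exonic bases with Cdc23 on the opposite strand, and the kit does not mark strand, so reads from both cannot be parted; Cdc23 averaged 7.19 in qNSC and 8.30 in aNSC. Kif4, a chromokinesin that also works at the midzone, shares 832 bases with Pdzd11, which varied from 5.85 to 6.92 across the 10 populations. Kif22 shares 96 bases with an antisense gene model.

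**Figure D2:**
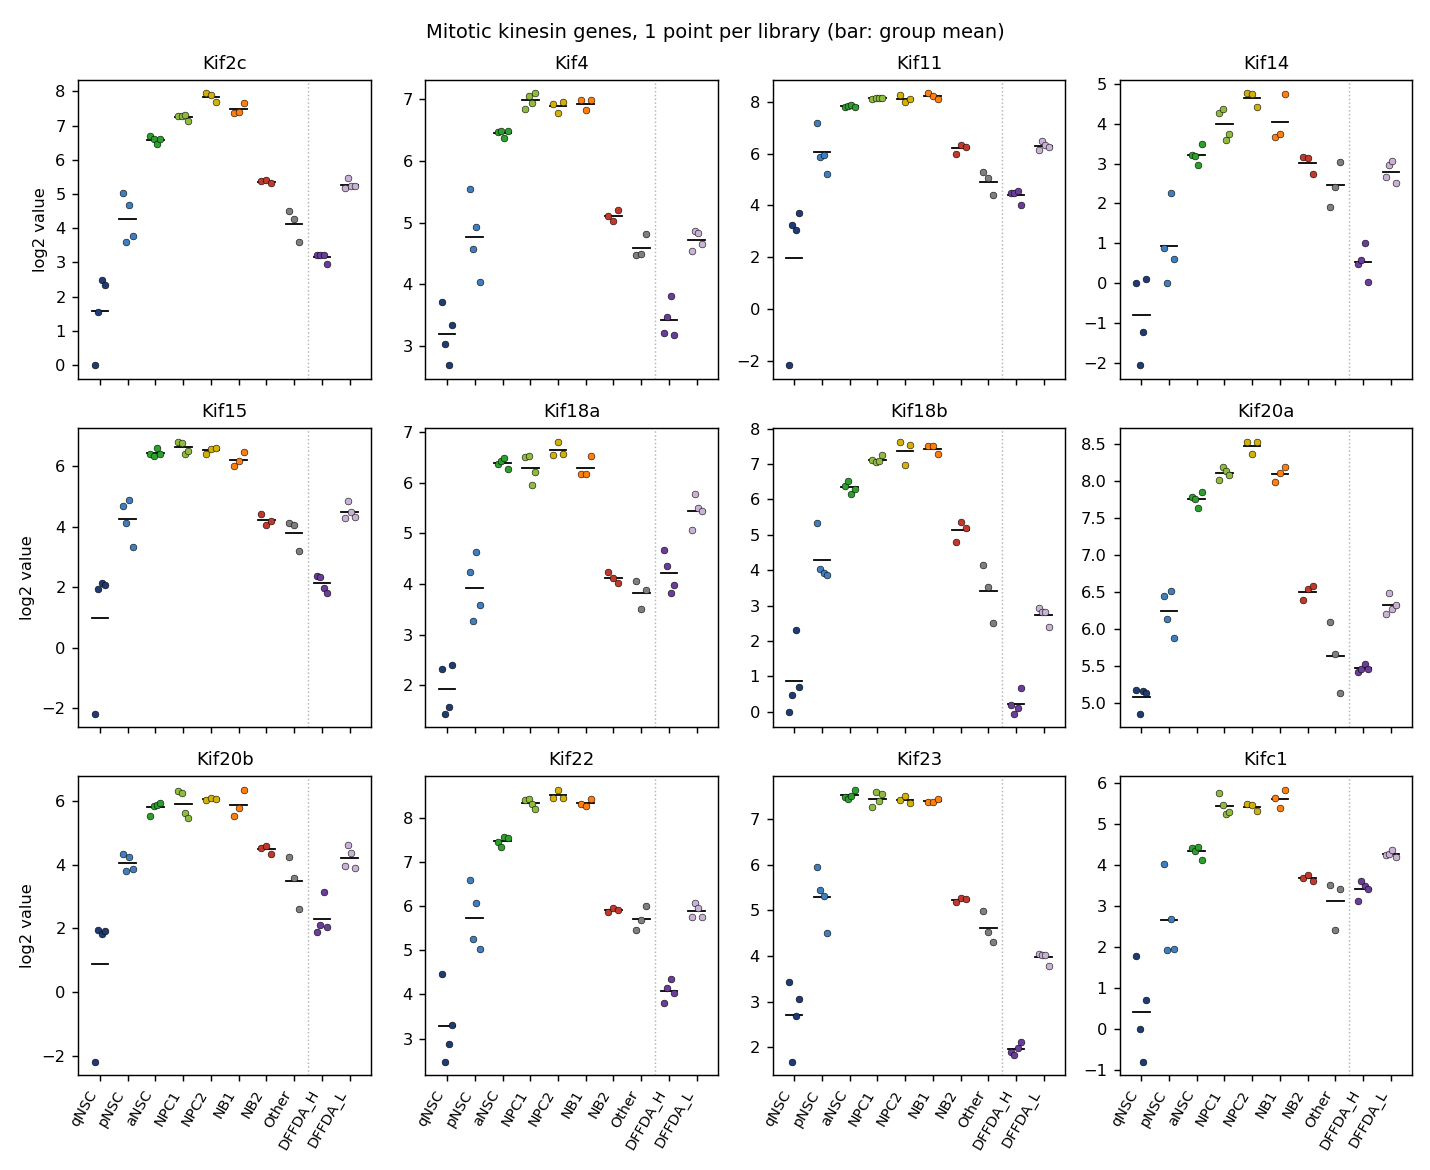
Deposited log2 values of the 12 mitotic kinesins, 1 point per library and a bar at each group mean, with the cultured populations right of the dotted line. The points of aNSC, NPC1, NPC2 and NB1 form a plateau above pNSC and NB2, except that aNSC and NB2 overlap for Kif14. The library qNSC replicate 1 lies at -2.18 for Kif11, Kif15 and Kif20b.

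Along the plateau no mitotic kinesin was called. From aNSC to NPC1 the median change was 0.44 (0.03 over all genes), with 0 of 12 called in either direction and 5 higher and 0 lower at an unadjusted p under 0.05 in limma. Over all genes 6.24% were higher and 6.48% lower. For 8 of the 12 every NPC1 library lay above every aNSC library, a count with no share of all genes to set beside it. A fit of these groups alone, with their smaller spread, called 8 higher. The share of all genes called in that fit is not given here. From NPC1 to NPC2 the median was 0.16 (0.02 over all genes), 1 rose at an unadjusted p under 0.05 and 0 fell, and the groups-only fit called 1, while 0.202% of all genes were higher and 1.14% lower. From NPC2 to NB1 the median was -0.17 (-0.00 over all genes), 0 rose and 1 fell at an unadjusted p under 0.05, and the groups-only fit called 1 lower. Here 3.78% of all genes were higher and 3.88% lower.

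From NB1 to NB2 the libraries of all 12 mitotic kinesins parted without overlap, all of them lower in NB2, with a median of -2.01 (-0.03 over all genes). Of the 12, 9 were called lower, while 10.4% of all genes were higher and 14.2% lower. Kif22 fell by 2.42 ± 0.33 (SE; limma adjusted p = 5.55e-06), Kif18b by 2.31 ± 0.42 (limma adjusted p = 0.000213) and Kif23 by 2.16 ± 0.30 (limma adjusted p = 6.63e-06). The 3 not called were Kif11 (limma adjusted p = 0.0748, range 1.15e-05 to 0.15), Kif20b, an abscission motor (limma adjusted p = 0.111, range 0.00106 to 0.283), and Kif14 (limma adjusted p = 0.135, range 0.0231 to 0.429). Each of these was called lower when only NB1 and NB2 were fitted, which leaves out the spread of the other fresh populations. A pseudocount of 1 also called each lower (limma adjusted p = 0.00403 for Kif11, 0.0076 for Kif20b and 0.0343 for Kif14). The call of Kif15, which helps Kif11 hold the spindle bipolar, ended without any NB1 library and without NB2 replicate 2 or 3 (limma adjusted p = 0.0276, range 4.87e-05 to 0.0855).

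NB2 nevertheless kept more mitotic kinesin RNA than qNSC: all 12 were higher, with a median of 3.25 (0.30 over all genes) and no overlap. Over all genes 39.4% were higher and 28.8% lower. The differences ran from 1.42 for Kif20a to 4.25 for Kif18b, and without qNSC replicate 1 that of Kif15 moved from 3.23 to 2.17 and that of Kif20b from 3.60 to 2.58. Kif11 moved from 4.24 to 2.86 without it, and to 4.83 without qNSC replicate 4. Against the mean of the 7 named SEZ populations, Other had 10 of 12 lower, with a median of -1.26 (-0.06 over all genes), while 25.9% of all genes were higher and 28.4% lower. Kif14 and Kifc1 were the members not called. Calls of Kif11, Kif15 and Kif20b ended without Other replicate 3, the library with the fewest distinct steps up to its median gene (56), those of Kif11 and Kif20b also without Other replicate 2, and that of Kif15 without any single Other library. Other also held endothelial markers, 8 of 8 higher, and mural cell markers, 4 of 4 higher; their part in the kinesin values was not tested.

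In culture, all 12 mitotic kinesins were lower in DFFDA_H than in DFFDA_L, with no overlap and a median of -1.92 (-0.01 over all genes), where 21.6% of all genes were higher and 22.3% lower. Kif18b read 0.18, -0.05, 0.10 and 0.66 in DFFDA_H and 2.94, 2.82, 2.82 and 2.38 in DFFDA_L, and fell by 2.52 ± 0.23 (SE; limma adjusted p = 4.42e-06). Kif11 read 4.49, 4.49, 4.56 and 4.00 and 6.13, 6.47, 6.33 and 6.25, and fell by 1.91 ± 0.13 (SE; limma adjusted p = 5.83e-07). Kif23 gave 1.90, 1.84, 1.98 and 2.13 against 4.05, 4.03, 4.03 and 3.78 and fell by 2.01 ± 0.16 (SE; limma adjusted p = 1.72e-06). These 3 genes were lower in every DFFDA_H library than in any DFFDA_L library, by more than the whole spread within either group.

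The same order held for Kif2c, at 3.21, 3.20, 3.22 and 2.96 in DFFDA_H and 5.17, 5.46, 5.24 and 5.25 in DFFDA_L, which fell by 2.13 ± 0.13 (SE; limma adjusted p = 2.8e-07). Kif22 was at 3.80, 4.15, 4.35 and 4.04 and 5.74, 6.07, 5.96 and 5.74 and fell by 1.79 ± 0.13 (SE; limma adjusted p = 1.01e-06). Kifc1 changed least, with Kif20a: its values were 3.12, 3.63, 3.50 and 3.42 and 4.25, 4.26, 4.37 and 4.19, and it fell by 0.85 ± 0.15 (SE; limma adjusted p = 0.000496). In Other the fresh values of these genes were 5.28, 5.05 and 4.39 for Kif11, 4.99, 4.53 and 4.31 for Kif23 and 4.50, 4.28 and 3.60 for Kif2c. For Kif22 they were 5.47, 5.69 and 5.99, for Kif18b 4.15, 3.53 and 2.52 and for Kifc1 3.52, 2.41 and 3.42.

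Genes that work with the mitotic motors moved beside them. Of 16 such partners, which hold the passenger complex, the centralspindlin partner Racgap1 and spindle proteins, 15 rose from qNSC to pNSC and 15 from pNSC to aNSC, and 15 fell and 1 rose from NB1 to NB2. In the first of these comparisons the smallest p-values were those of Tpx2, an activator of Aurora A (3.24 ± 0.20 SE, limma adjusted p = 3.68e-11), and Prc1, a midzone bundler (3.11 ± 0.22 SE, limma adjusted p = 6.5e-10). All 16 were lower in DFFDA_H, and the shares of all genes are those given with the mitotic kinesins. From aNSC to NPC1 2 rose, the passenger complex genes Cdca8 (0.83 ± 0.22 SE, limma adjusted p = 0.0136) and Birc5 (0.81 ± 0.25 SE, limma adjusted p = 0.0335). The 6 cycling markers were all called in the direction of the mitotic kinesins in the 6 comparisons in which any mitotic kinesin was called. Their part in the kinesin values was not tested.

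Promoters are shown because the mitotic members rose and fell together. Many promoters of genes of late cell cycle hold a cell cycle homology region (CHR) or CCAAT boxes. The CHR was searched as TTTGAA or TTCGAA and the box as CCAAT, on both strands, in the 250 bases before the start site of each RefSeq promoter (GRCm38.p6). The searched letters can share at most 1 base, and they share none in the sequences below. Promoters were found for 30 kinesins, 11 of them mitotic. These 4 sites of 30 bases are the CHR matches that lie within 30 bases of the start site in members that rose at pNSC; capitals mark the match, here read on either strand, 5′ to 3′ along the gene:
Kif11, chr19:37376349-37376378, plus strand: agtcgtctccatttTTCAAAattgaggcgc
Kif15, chr9:122951048-122951077, plus strand: gttggggcgccaaaTTCAAAtctgcggcca
Kif22, chr7:127042422-127042451, minus strand: cggggccccggtaaTTCAAAagagagaagc
Kif24, chr4:41464859-41464888, minus strand: cgtcggcgcgcgcgTTCGAActggcgcttg

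The capitals begin 19, 19, 17 and 26 bases before the RefSeq start site, in that order. In GENCODE M21 the annotated genes Kif15, Kif22 and Kif24 begin further upstream, so their capitals lie inside the gene. Those of Kif11 lie before its annotated start. Kif24 is listed with the cilium kinesins, and its values are given with them. A CHR match was found in 5 of 11 mitotic promoters, 1 of 13 promoters of 11 transport kinesins and 17.15% of all 32851 promoters searched. A CCAAT match was found in 7 of the 11, in 4 of the 13 and in 33.85% of all, and both in 3 of the 11, 0 of the 13 and 6.02% of all. Among the 10 promoters of the other kinesins, 3 held a CHR match, 4 a CCAAT match and 3 both, a share of both (30%) no lower than that of the mitotic promoters (27.27%). Some windows with a CHR match lie wholly inside the gene as annotated in GENCODE M21. They are those of the mitotic Kif2c and Kif14, of Kif27, and the Kif1a window that gave the transport match. The last 150 bases of the Kif2c, Kif14 and Kif1a windows overlap no annotated exon. Whether these windows act as promoters was not tested. The 150 bases before the start site are given for 2 mitotic members, Kif11 and Kif18b, and for 2 transport members highest in NB2, Kif3c and Kif5c, whose windows hold neither motif:
Kif11, chr19:37376232-37376381, plus strand: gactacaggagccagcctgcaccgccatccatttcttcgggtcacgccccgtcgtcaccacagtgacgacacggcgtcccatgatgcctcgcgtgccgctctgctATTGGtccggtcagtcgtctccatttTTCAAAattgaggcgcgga
Kif18b, chr11:102925125-102925274, minus strand: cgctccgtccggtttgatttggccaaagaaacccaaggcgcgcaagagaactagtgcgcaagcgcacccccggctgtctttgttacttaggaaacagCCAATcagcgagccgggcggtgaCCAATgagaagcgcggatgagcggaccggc
Kif3c, chr12:3364982-3365131, plus strand: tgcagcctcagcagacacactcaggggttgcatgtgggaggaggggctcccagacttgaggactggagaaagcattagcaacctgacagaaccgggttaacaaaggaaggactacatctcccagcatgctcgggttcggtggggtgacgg
Kif5c, chr2:49619136-49619285, plus strand: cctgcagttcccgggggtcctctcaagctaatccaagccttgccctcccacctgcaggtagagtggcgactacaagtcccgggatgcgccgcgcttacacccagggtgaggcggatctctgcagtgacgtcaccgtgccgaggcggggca

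Kif11 had 1 CHR and 1 CCAAT match (ATTGG, the box on the other strand, 45 bases before the start site), and Kif18b had 2 CCAAT matches, 53 and 30 bases before it, and no CHR match. A match describes letters in a window and is not a measured binding site.

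The transport and neuronal kinesins did not move as a block. Their mean log2 level ranged from 4.23 ± 0.09 (SD, n = 4) in aNSC to 5.17 ± 0.12 (SD, n = 3) in NB2 among the fresh populations, a far smaller range than that of the mitotic members, and their lowest means were in culture, 3.76 ± 0.22 (SD, n = 4) in DFFDA_H and 3.81 ± 0.18 (SD, n = 4) in DFFDA_L. In the order of the labels, 4 of 17 rose and 3 fell from qNSC to pNSC, where 14.2% of all genes rose and 8.06% fell. To aNSC 1 rose and 5 fell (28.4% and 19.9% of all genes). To NPC1 1 rose and 2 fell (6.24% and 6.48% of all genes), the 1 that rose being near that share. None was called from NPC1 to NPC2, where over all 38 kinesins 2 rose and 6 fell at an unadjusted p under 0.05 in limma and the groups-only fit called 1 transport kinesin lower. From NPC2 to NB1 4 rose and 2 fell (3.78% and 3.88% of all genes). From NB1 to NB2 7 rose and 0 fell (10.4% and 14.2% of all genes), with a median of 0.52. NB2 had 9 higher and 5 lower than qNSC, where 39.4% of all genes were higher and 28.8% lower, so the 5 lower lay near that share. Under a fit of qNSC and pNSC alone the count for those groups was 2, and without pNSC replicate 1 it was 3.

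Kinesin-1 is the main motor for long-range plus-end transport, and its heavy chain comes in 3 forms, of which Kif5b is made in most cells and Kif5a and Kif5c are enriched in neurons. Kif5a had log2 values of 3.18, 5.20, 2.41 and 3.42 in qNSC, 4.64, 5.41, 3.57 and 4.19 in pNSC and 3.39, 3.08, 3.26 and 3.27 in aNSC. It then gave 5.07, 4.76, 4.96 and 4.98 in NPC1, 4.43, 3.35 and 3.84 in NPC2, 6.64, 6.43 and 5.90 in NB1 and 7.55, 8.14 and 8.68 in NB2. Values in Other were 6.56, 6.20 and 6.06, and in culture they were near or below 0, at -1.92, -0.80, -1.49 and 0.30 in DFFDA_H and -0.74, -1.53, -1.25 and -1.52 in DFFDA_L. The 3 NB2 libraries were above every other library, and Other and NB1 came next and overlapped each other. Kif5a fell by 1.2 ± 0.40 (SE) from pNSC to aNSC (limma adjusted p = 0.0152, a call that ended without pNSC replicate 2, range 0.0046 to 0.0808) and rose by 1.69 ± 0.40 to NPC1 (limma adjusted p = 0.0056). It rose again by 2.45 ± 0.46 from NPC2 to NB1 (limma adjusted p = 0.00104) and by 1.80 ± 0.46 from NB1 to NB2 (limma adjusted p = 0.00522), and was 23.7-fold higher in NB2 than in qNSC (limma adjusted p = 8.16e-10).

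Kif5c values were 1.68, 5.24, 3.71 and 3.52 in qNSC, 6.61, 4.95, 3.94 and 5.06 in pNSC and 5.47, 5.60, 5.35 and 5.21 in aNSC. NPC1 followed with 6.81, 6.20, 6.13 and 6.45, NPC2 with 6.36, 6.19 and 6.06, NB1 with 6.77, 6.71 and 6.92 and NB2 with 7.63, 7.99 and 8.12. Other gave 7.75, 7.32 and 7.27, DFFDA_H 3.01, 2.65, 3.46 and 3.36 and DFFDA_L 3.15, 3.20, 3.50 and 3.69. NB2 and Other were highest and overlapped, and all cultured libraries lay within the wide range of qNSC. Its rise from qNSC to pNSC (1.60 ± 0.47 SE, limma adjusted p = 0.0154) lost the call without qNSC replicate 1, where it was 0.98, or pNSC replicate 1 (range 0.000481 to 0.174). No later single step was called: NB1 to NB2 gave 1.11 ± 0.54 (SE; limma adjusted p = 0.138) although no libraries overlapped. With only the groups compared in the fit, Kif5c was called higher in NPC1 than aNSC (limma adjusted p = 0.000728), in NB1 than NPC2 (limma adjusted p = 0.0114) and in NB2 than NB1 (limma adjusted p = 0.000591). Across the whole span, Kif5c was 20.7-fold higher in NB2 than in qNSC (limma adjusted p = 3e-08), and 13.5-fold without qNSC replicate 1.

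Kif5b behaved differently from Kif5a and Kif5c. It read 6.61, 6.38, 6.77 and 6.69 in qNSC, 7.50, 6.93, 7.0 and 6.82 in pNSC and 7.66, 7.70, 7.60 and 7.63 in aNSC. After that it was nearly level, at 8.05, 7.94, 7.69 and 7.72 in NPC1, 7.52, 7.45 and 7.63 in NPC2, 7.67, 7.58 and 7.77 in NB1 and 7.58, 7.57 and 7.36 in NB2. In Other it was 7.59, 7.49 and 7.66, and in culture 7.88, 7.57, 7.91 and 7.89 in DFFDA_H and 8.47, 8.31, 8.19 and 8.15 in DFFDA_L. The groups qNSC, pNSC and aNSC did not overlap, and all DFFDA_L libraries lay above all others. Kif5b was the one transport kinesin that rose from pNSC to aNSC (0.59 ± 0.12 SE, limma adjusted p = 0.000289), after a rise from qNSC to pNSC (0.45 ± 0.12 SE, limma adjusted p = 0.00991, range 0.00339 to 0.123) that lost its call without pNSC replicate 1. It fell by 0.47 ± 0.10 (SE) from DFFDA_L to DFFDA_H (limma adjusted p = 0.00185). Per kilobase of exon, the heavy chains stood at log2 levels of 3.62 for Kif5b, 0.75 for Kif5a and 0.70 for Kif5c in qNSC, and at 4.51, 5.32 and 5.08 in NB2.

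Kinesin-2 motors drive transport into cilia and axons. Kif3a pairs with Kif3b or Kif3c. Kif3c, the neuron-enriched partner, had log2 values of 3.99, 4.53, 4.84 and 4.61 in qNSC, 5.38, 5.28, 5.24 and 5.15 in pNSC and 5.50, 5.17, 4.98 and 5.00 in aNSC. It had 5.72, 5.43, 6.15 and 6.08 in NPC1, 5.99, 5.36 and 5.82 in NPC2, 7.29, 7.05 and 6.17 in NB1 and 7.46, 8.05 and 8.08 in NB2. Other gave 6.93, 6.26 and 5.92, DFFDA_H 6.17, 6.08, 6.21 and 6.50 and DFFDA_L 6.52, 6.00, 6.16 and 6.20. The NB2 libraries lay above all others, and the cultured groups overlapped at a level between NPC1 and NB1. Kif3c was 10.3-fold higher in NB2 than in qNSC (limma adjusted p = 1.51e-11), with a rise of 1.11 ± 0.28 (SE) at NB1 (limma adjusted p = 0.0114, range 0.00152 to 0.103) and 1.03 ± 0.28 at NB2 (limma adjusted p = 0.00778, range 0.00402 to 0.0839). The NB1 call ended without NPC2 replicate 2 or NB1 replicate 1 or 2, and the NB2 call without NB1 replicate 3. Its antisense partner 1110002L01Rik shares 2617 exonic bases with it and averaged 4.13 in qNSC and 5.02 in NB2.

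Kif3a was more even, with group means from 5.86 in DFFDA_H to 7.39 in Other, and rose by 0.71 ± 0.16 (SE) from NPC2 to NB1 (limma adjusted p = 0.00654) and by 0.65 ± 0.16 to NB2 (limma adjusted p = 0.00439). Kif3b, the partner of Kif3a in most ciliated cells, was 1.55 ± 0.38 (SE) higher in NB2 than in qNSC (limma adjusted p = 0.000946) and was called in no step between neighbours. Kif17, a kinesin-2 of dendrites and cilia, was low throughout and lower in NB2 than in qNSC, by -2.58 ± 0.69 (SE; limma adjusted p = 0.00194) and by -1.83 without NB2 replicate 2. Its group means ran from -0.59 in Other to 2.54 in qNSC.

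Kif1a, of the kinesin-3 family, carries synaptic vesicle precursors. Its log2 values were 7.63, 7.68, 7.63 and 7.83 in qNSC, 7.67, 7.42, 7.11 and 7.60 in pNSC and 5.82, 5.92, 5.63 and 5.91 in aNSC. They stayed low at 6.54, 6.04, 5.82 and 5.94 in NPC1 and 6.21, 5.84 and 5.83 in NPC2, and rose through 6.65, 6.60 and 6.77 in NB1 to 7.73, 8.18 and 8.26 in NB2. Other read 7.79, 7.77 and 7.95, DFFDA_H 6.40, 6.48, 6.99 and 7.36 and DFFDA_L 6.74, 5.99, 6.19 and 6.27. So qNSC, pNSC, NB2 and Other were high and aNSC to NPC2 low, with no library of aNSC, NPC1, NPC2 or NB1 reaching any of the high groups. Kif1a fell by 1.63 ± 0.15 (SE) from pNSC to aNSC (limma adjusted p = 1.43e-09). It rose by 0.71 ± 0.17 from NPC2 to NB1 (limma adjusted p = 0.00853, range 0.00688 to 0.052, lost without NPC2 replicate 2 or 3) and by 1.39 ± 0.17 from NB1 to NB2 (limma adjusted p = 1.19e-06). Its excess in NB2 over qNSC, 0.36 ± 0.16 (SE), was at the threshold (limma adjusted p = 0.0456, range 0.00901 to 0.223) and lost the call without any of 5 libraries (qNSC replicates 1 to 3 and NB2 replicates 2 and 3).

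Kif1b, which carries mitochondria and synaptic vesicle precursors, had the same dip, from group means of 7.88 in qNSC and 7.48 in pNSC to 6.62 in aNSC, then back to 7.94 in NB2. It fell by 0.86 ± 0.16 (SE) at aNSC (limma adjusted p = 6.32e-05) and rose by 1.42 ± 0.18 from NB1 to NB2 (limma adjusted p = 1.88e-06). Unlike Kif1a it was as high in culture, 7.84 and 7.97, as in qNSC. Kif1c, a broadly made family member, was low in fresh cells and fell by 2.23 ± 0.81 (SE) from qNSC to pNSC (limma adjusted p = 0.0496, range 0.014 to 0.284); without pNSC replicate 1 the difference was -0.91 and not called, and without pNSC replicate 4 it was -2.85. It also lost the call without qNSC replicate 2, 3 or 4. Its value in pNSC replicate 1 was that library's floor of -3.74, so the size of the fall depends on where that floor lies.

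Kif13a, which moves recycling endosomes, declined where the neuronal motors climbed. Group means went from 4.69 in qNSC and 4.67 in aNSC to 3.15 in NB1 and 2.72 in NB2, and were highest in DFFDA_L at 5.88. It fell by 1.33 ± 0.24 (SE) from NPC2 to NB1 (limma adjusted p = 0.000712) and by 0.88 ± 0.19 in DFFDA_H against DFFDA_L (limma adjusted p = 0.00253). An earlier fall at NPC1 (limma adjusted p = 0.0208, range 0.00368 to 0.0732) lost its call without aNSC replicate 1 or 2 or NPC1 replicate 1, 2 or 3. Kif13b, its paralogue, was higher in NB2 than in qNSC (1.36 ± 0.35 SE, limma adjusted p = 0.00146), and Kif16b, an early endosome motor, was lower (-1.08 ± 0.29 SE, limma adjusted p = 0.0023).

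Kif21b, a kinesin-4 of dendrites and axons that also restrains microtubule growth, had log2 values of 4.31, 2.53, 1.71 and 2.92 in qNSC, 0.75, 1.07, 0.94 and 2.46 in pNSC and 2.62, 2.3, 1.58 and 1.39 in aNSC. It gave 3.23, 2.85, 2.73 and 2.77 in NPC1, 2.66, 2.71 and 2.79 in NPC2, 3.84, 3.92 and 3.66 in NB1 and 5.88, 6.34 and 5.98 in NB2. In Other it was 5.33, 4.83 and 5.47, in DFFDA_H 3.65, 3.84, 4.59 and 4.67 and in DFFDA_L 4.85, 4.23, 4.49 and 3.93. NB2 was highest with no overlap, Other next, and pNSC lowest though it overlapped qNSC and aNSC. Kif21b fell by 1.57 ± 0.40 (SE) from qNSC to pNSC (limma adjusted p = 0.00591, 0.126 with only these groups fitted) and rose by 2.26 ± 0.46 from NB1 to NB2 (limma adjusted p = 0.000631), ending 9.17-fold above qNSC (limma adjusted p = 3.5e-07). Kif21a, its close relative in axons, moved less: it rose by 0.61 ± 0.16 (SE) from qNSC to pNSC (limma adjusted p = 0.00633) and by 0.70 ± 0.18 from NB1 to NB2 (limma adjusted p = 0.00557). Its falls at NPC1 (limma adjusted p = 0.0417, range 0.0112 to 0.175) and NB1 (limma adjusted p = 0.0499, range 0.00999 to 0.241) each lost the call without any of several libraries of the groups compared.

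The minus-end-directed Kifc2 and Kifc3 were highest in qNSC. Kifc2, enriched in neurons, read 4.46, 5.58, 5.34 and 5.64 in qNSC, 1.97, 4.97, 4.46 and 4.25 in pNSC and -0.27, 1.94, 0.22 and 2.23 in aNSC. It read 2.51, 2.63, 1.94 and 2.61 in NPC1, -0.15, 1.1 and 1.52 in NPC2, 2.67, 2.01 and 3.20 in NB1 and 2.29, 3.45 and 3.71 in NB2. Values were 0.91, 1.78 and 1.65 in Other, -3.15, -2.33, -3.00 and -1.85 in DFFDA_H and -2.82, -3.56, -4.56 and -3.63 in DFFDA_L. One pNSC library, replicate 1, sat among the aNSC libraries, the other 3 pNSC libraries lay above all of them, and culture was far below every fresh population. Kifc2 fell by 2.89 ± 0.57 (SE) from pNSC to aNSC (limma adjusted p = 0.000155), and by 3.53 without pNSC replicate 1. Kifc3, a motor of junctions and of the Golgi, had means of 6.76 in qNSC, 5.40 in pNSC, 3.55 in aNSC and 2.25 in NB2. It fell by 1.36 ± 0.30 (SE) at pNSC (limma adjusted p = 0.0021) and 1.85 ± 0.30 at aNSC (limma adjusted p = 1.81e-05). Astroglial markers (8 genes) also had their highest sums in qNSC and pNSC, 14.76 to 14.95, against 11.09 to 12.01 in aNSC and 7.89 to 8.12 in NB2, where 8 of 8 were lower than in qNSC. Oligodendrocyte markers summed to 8.64 to 9.49 in qNSC and pNSC and to 7.71 to 8.01 in aNSC. Cnp gave most of this sum (8.71 in qNSC and 7.70 in aNSC), and Ermn went the other way (-1.47 and 1.00). Mural cell markers (4 genes) summed to 6.91 to 7.34 in qNSC, 4.47 to 7.20 in pNSC and -1.31 to 2.17 in aNSC. Pdgfrb (7.11) gave nearly all of the qNSC sum, beside Rgs5 at 0.48, Vtn at 0.45 and Acta2 at -0.87. From pNSC to aNSC 1 of 4 mural markers and 5 of 10 microglia markers were called lower. The part of these markers in the values of Kifc2 and Kifc3 was not tested.

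**Figure D3:**
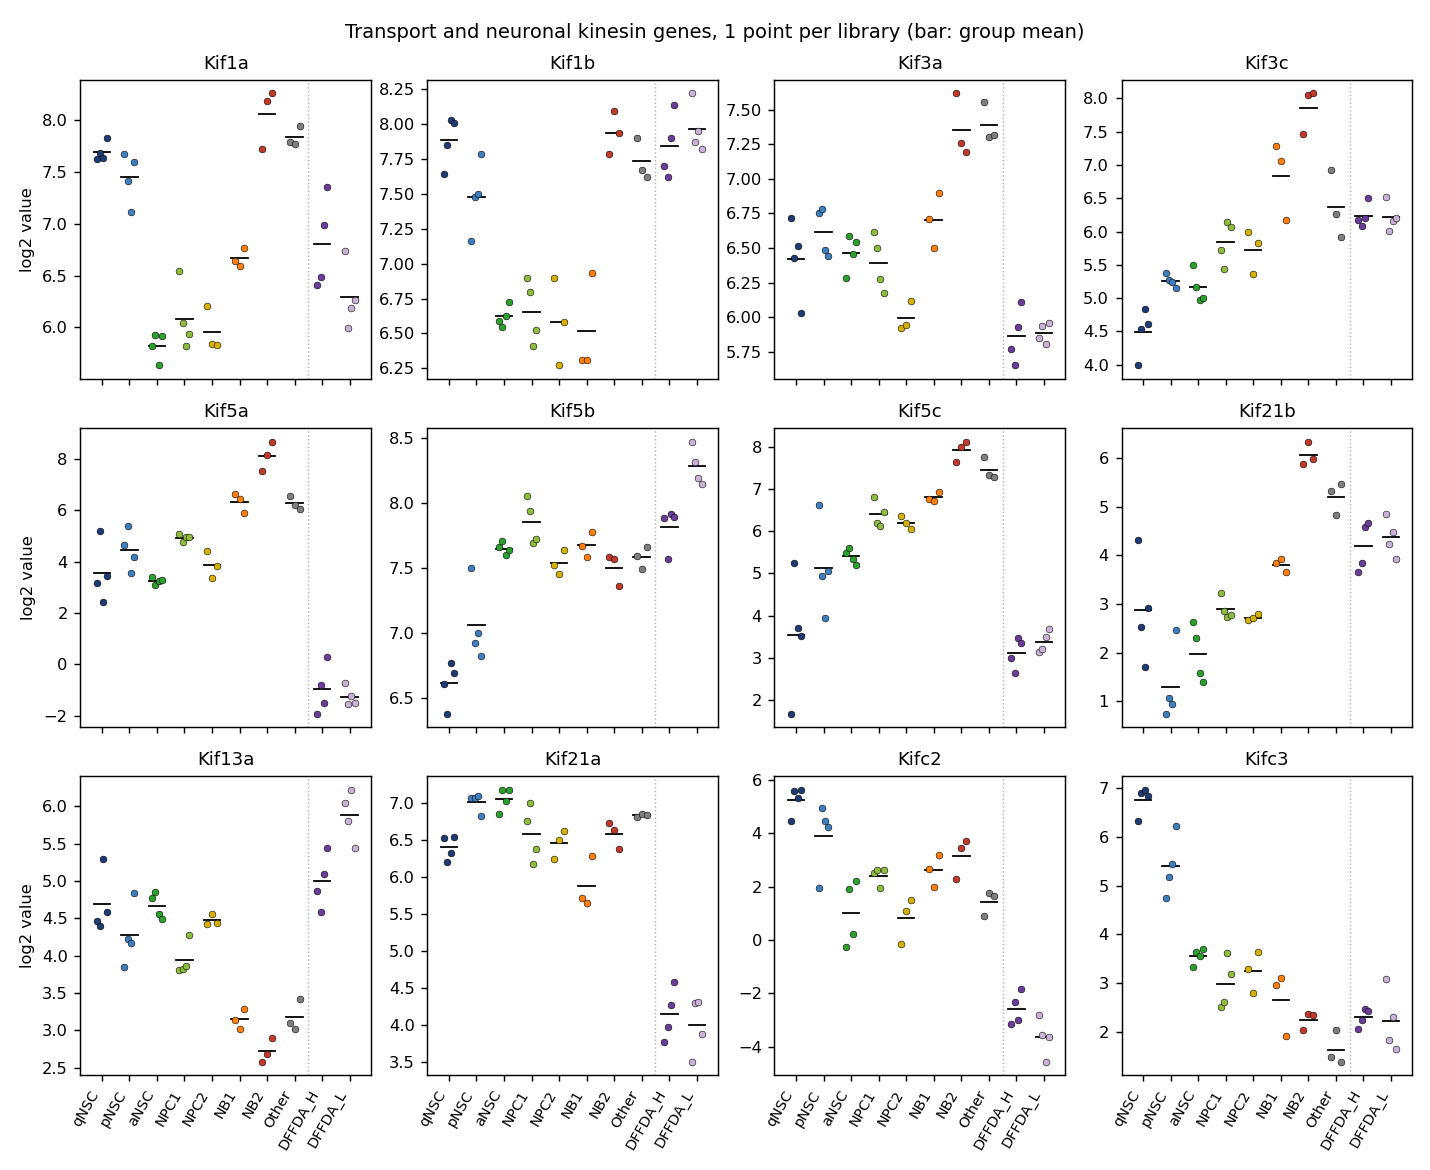
Deposited log2 values of 12 transport and neuronal kinesins, 1 point per library and a bar at each group mean, each panel on its own axis, with the cultured populations right of the dotted line. Kif1a and Kif1b dip from aNSC to NB1, Kif5a, Kif5c, Kif3c and Kif21b peak in NB2, and Kifc2 and Kifc3 are highest in qNSC.

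In the population Other, 7 of 17 transport kinesins were higher than the mean of the 7 named populations and 4 lower, where 25.9% of all genes were higher and 28.4% lower. Kif21b was 2.12 ± 0.34 (SE) higher (limma adjusted p = 1.33e-05), Kif5c 1.53 ± 0.40 (limma adjusted p = 0.00246) and Kif1a 1.02 ± 0.13 (limma adjusted p = 3.79e-07), and Kifc3 was lower, by -2.21 ± 0.26 (limma adjusted p = 1.92e-07). Calls of Kif3c (limma adjusted p = 0.05, range 0.0194 to 0.476), Kif17 (limma adjusted p = 0.0424, range 0.0325 to 0.229) and Kifc2 (limma adjusted p = 0.0272, range 0.0123 to 0.15) each ended without 2 or more of the single Other libraries. Neuroblast markers were all higher in Other, 8 of 8, with sums of 12.50 to 13.02 beside 12.91 to 13.11 in NB2, and microglia markers were higher for 8 of 10. Their part in the kinesin values was not tested.

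Of 16 partners of the transport motors (kinesin light chains, Kifap3 and cargo adaptors), 7 were higher and 2 lower in NB2 than in qNSC, and 4 rose and 0 fell from NB1 to NB2. Of all genes tested, 39.4% were higher and 28.8% lower in NB2 than in qNSC, so the 7 higher lay near that share. For NB2 against NB1 the shares were 10.4% and 14.2%. The smallest p-values for NB2 against qNSC were those of Klc1, a kinesin-1 light chain (1.99 ± 0.17 SE, limma adjusted p = 6.85e-11), and Mapk8ip2, a scaffold that binds light chains (2.29 ± 0.21 SE, limma adjusted p = 3.44e-10). From pNSC to aNSC 4 partners rose and 4 fell, near the 28.4% of all genes called higher and the 19.9% called lower. The calls were led by falls of Kif1bp, a kinesin-binding protein, at -0.86 ± 0.10 SE, limma adjusted p = 2.1e-07, and Clstn1, a cargo adaptor, at -1.35 ± 0.24 SE, limma adjusted p = 5.58e-05. Mature neuron markers were higher for 4 and lower for 1 of 8 tested in NB2 against qNSC, and Slc17a7, of excitatory neurons, was at the floor in every NB2 library. The part of such markers in the transport kinesin values was not tested.

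The lists parted in their counts at several steps, and the shares of all genes are those given above with each list. From qNSC to pNSC 12 of 12 mitotic members rose while 4 of 17 transport members rose and 3 fell. From pNSC to aNSC 12 of 12 mitotic members rose while 1 of 17 transport members rose, 5 fell and 11 were not called (median 0.05), and from NB1 to NB2 9 of 12 mitotic members fell while 7 of 17 transport members rose. Over the 28 fresh libraries the 66 pairs of mitotic members had a median correlation of 0.93 (0.76 to 0.99), whereas the 136 pairs of transport members had a median of 0.03, from -0.92 for Kif5a and Kif13a to 0.91 for Kif1a and Kif1b. These libraries share their populations and one normalization, so the correlations describe the populations. With the mean of the 12 mitotic members, Kif1b correlated at -0.82 and Kif1a at -0.76, while Kif5b correlated at 0.86 and Kif3b at 0.65. Among all non-mitotic kinesins, Kif24 and Kif5b were most like the mitotic mean.

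**Figure D4:**
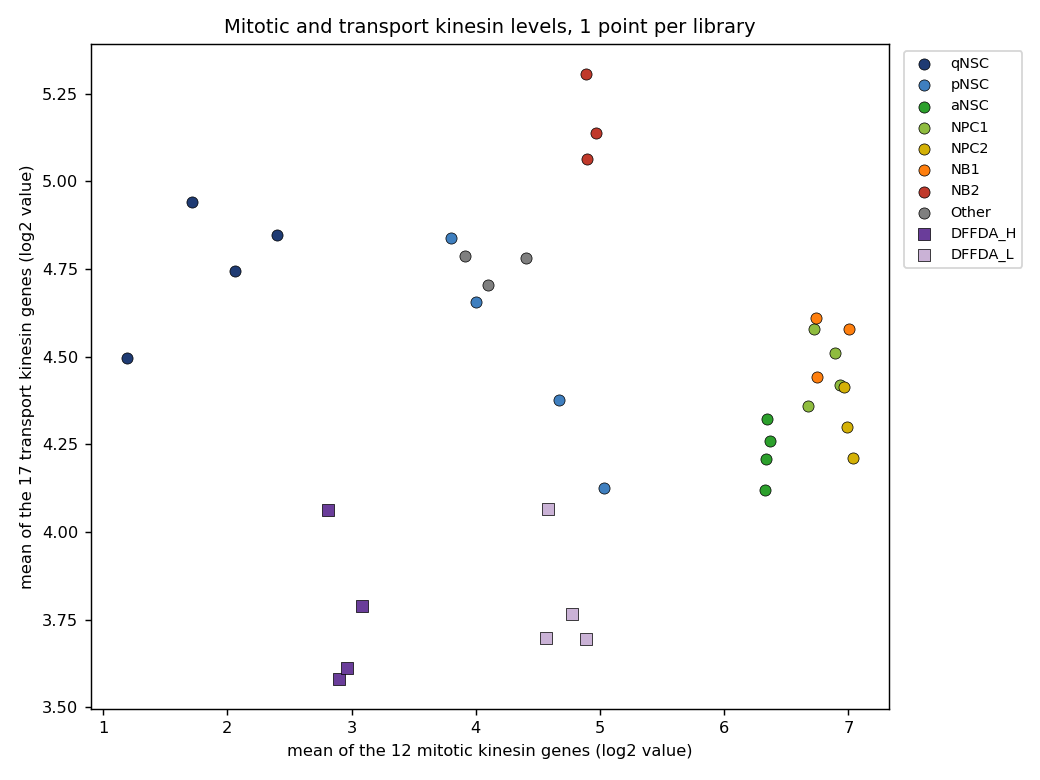
Mean log2 value of the 12 mitotic kinesins (x axis) against that of the 17 transport kinesins (y axis), 1 point per library; circles are fresh and squares cultured populations. Fresh libraries spread widely along the x axis, NB2 has the highest transport means at 5.06 to 5.31, and DFFDA_H and DFFDA_L part along the x axis and overlap along the y axis.

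In culture 12 of 12 mitotic members and 3 of 15 tested transport members were lower in DFFDA_H, the latter a share near the 22.3% of all genes. The 3 were Kif5b, Kif13a and Kif13b (-0.46 ± 0.13 SE, limma adjusted p = 0.0124), and 0 were higher. The transport median was -0.13, against -0.01 over all genes. Without DFFDA_L replicate 1 the count of transport members called was 5, of which 2 were higher.

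**Figure D5:**
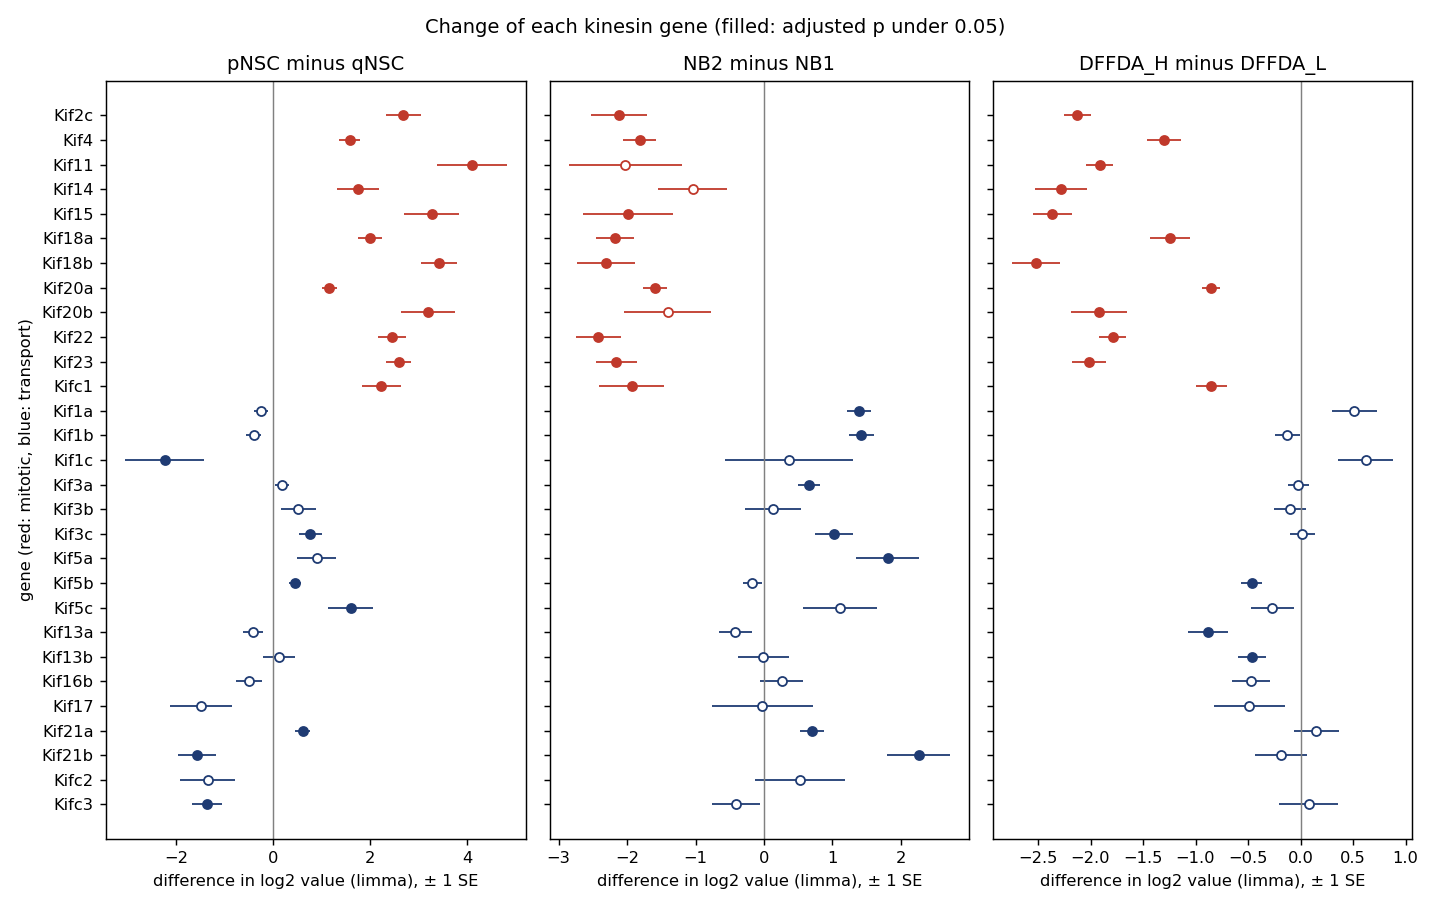
Difference in log2 value for each mitotic (red) and transport (blue) kinesin in 3 comparisons, with bars of 1 standard error from limma; filled points passed an adjusted p of 0.05 and genes not tested in culture are left blank. Red points lie right of 0 for pNSC against qNSC and left of 0 in the other comparisons, and blue points scatter around 0, with 7 filled on the right for NB2 against NB1.

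Among the kinesins of cilia and hedgehog signalling, Kif24 rose and Kif19a fell from pNSC to aNSC, and neither was called from NB1 to NB2 (limma adjusted p = 0.0863 and 0.544). Kif24, a depolymerase that holds back cilium assembly at the mother centriole, averaged 1.63 ± 0.71 (SD, n = 4) in qNSC, 3.35 ± 0.66 (SD, n = 4) in pNSC and 4.27 ± 0.27 (SD, n = 4) in aNSC. It rose by 1.72 ± 0.33 (SE) at pNSC (limma adjusted p = 0.000435, 0.051 with only these groups fitted) and was lower in DFFDA_H by -1.60 ± 0.22 (SE; limma adjusted p = 7.58e-05). Its rise at aNSC (limma adjusted p = 0.0231, range 0.00267 to 0.101) lost the call without pNSC replicate 3 or 4 or aNSC replicate 1.

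Kif19a, which sets the length of motile cilia by trimming their tips, had log2 values of 4.28, 3.68, 4.56 and 4.29 in qNSC, 2.64, 3.51, 1.87 and 3.16 in pNSC and 0.74, 0.70, 0.30 and 1.82 in aNSC. Later it gave 0.21, 1.18, 0.65 and 1.65 in NPC1, -0.15, 1.84 and 0.07 in NPC2, 0.52, -0.04 and 0.24 in NB1 and 0.88, -1.90 and -0.09 in NB2. Other gave 0.13, 1.02 and -1.27, DFFDA_H 0.70, 0.30, -0.49 and 0.11 and DFFDA_L -0.74, -1.41, -1.25 and -1.92. Every qNSC library was above every library of all other groups, and pNSC was above aNSC without overlap. Kif19a fell by 1.90 ± 0.57 (SE) from pNSC to aNSC (limma adjusted p = 0.00728) and was higher in DFFDA_H than in DFFDA_L, by 1.49 ± 0.37 (SE; limma adjusted p = 0.00531). NB2 was lower than qNSC by -4.57 ± 0.61 (SE; limma adjusted p = 3.39e-07), -5.20 without NB2 replicate 1 and -3.81 without NB2 replicate 2.

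Kif9, a motor of the central pair of motile cilia, had 2.32, 2.31, 2.85 and 2.71 in qNSC, 2.75, 2.21, 3.23 and 2.71 in pNSC and 0.60, 1.28, 1.95 and 1.02 in aNSC. It was at 0.12, 0.83, -0.83 and 1.35 in NPC1, 0.54, -4.24 and -2.60 in NPC2, -1.53, 0.28 and -0.02 in NB1 and 1.25, 1.34 and 0.50 in NB2. Other had -3.02, -0.14 and -1.27, DFFDA_H 0.28, 0.14, 0.62 and 0.44 and DFFDA_L 0.08, 0.04, -0.15 and -0.32. All qNSC and pNSC libraries lay above all others, and 1 NPC2 library was at the floor. The fall from pNSC to aNSC, -1.51 ± 0.72 (SE), was not called in the main fit (limma adjusted p = 0.0856). It was called with only these groups fitted (limma adjusted p = 0.00607) and with a pseudocount of 1 (limma adjusted p = 0.00138). Of 10 ependymal markers, genes of motile cilia, 3 also had their highest group means in qNSC and pNSC: Foxj1 (3.55 in qNSC, 3.15 in pNSC and 1.57 in aNSC), Rsph1 (2.61, 2.44 and 0.75) and Pifo (2.28, 1.3 and -3.24). The summed level of the 10, to which Cfap43 gave most (5.15 in qNSC and 6.55 in aNSC), was instead 5.90 to 6.62 in qNSC and 7.11 to 7.32 in aNSC, and Tmem212, Ccdc153 and Pifo were at the floor in all NPC2 libraries. The part of these markers in the values of Kif9 and Kif19a was not tested. Against the mean of the 7 named populations, 5 of the 6 cilium members were lower in Other, where 28.4% of all genes were. Of these calls, Kif7, Kif19a and Kif27 were lost without Other replicate 3 and Kif9 without Other replicate 1.

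Kif7, which sits at cilium tips and tunes hedgehog signalling, was called in no step between fresh neighbours. It was lower in DFFDA_H than in DFFDA_L by -1.08 ± 0.26 (SE; limma adjusted p = 0.00426), with means of 0.28 and 1.36. Kif6, a motile cilium motor, was higher in DFFDA_H by 1.26 ± 0.33 (SE; limma adjusted p = 0.00735). Its fall from qNSC to pNSC, -3.25 ± 1.06 (SE; limma adjusted p = 0.0285, range 0.0033 to 0.151), lost the call without qNSC replicate 1 or 2 or pNSC replicate 1 or 2, with values from -4.29 to -2.2 over the pNSC libraries left out. Replicates 1 and 2 of pNSC were at their floors, so the size of this fall depends on where those floors lie. Kif27, a paralogue of Kif7, was called in no comparison except Other.

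In the last group, Kif26a, which lacks motor activity and is known from enteric neurons, was highest in NB2. Its log2 values were -2.18, -0.33, -4.19 and -0.13 in qNSC, 2.93, 3.39 and 1.48 in NB1 and 4.96, 6.07 and 5.88 in NB2. Replicates 1 and 3 of qNSC were at their floors, so the difference of 7.34 ± 0.76 (SE; limma adjusted p = 4.53e-09) depends on where those floors lie, and it was 6.52 without qNSC replicate 3. The rise from NB1 to NB2, 3.04 ± 0.82 (SE; limma adjusted p = 0.00759, range 5.85e-05 to 0.0544), lost its call without NB1 replicate 3. From qNSC to pNSC the difference was 2.93 ± 0.71 (SE; limma adjusted p = 0.00402, 0.0908 with only these groups fitted), and 2.1 without qNSC replicate 3. In culture Kif26a ran from -4.22 to -2.07.

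Kif2a, a depolymerase of spindle poles and growing axons, was 1.19 ± 0.28 (SE) higher in NB2 than in qNSC (limma adjusted p = 0.000614), highest in culture, and lower in DFFDA_H than in DFFDA_L by -0.36 ± 0.08 (SE; limma adjusted p = 0.00388). It shares 1229 exonic bases with Dimt1 on the opposite strand. Kif28 was low everywhere, with means from -0.99 to 0.64, and was not called in any comparison.

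Kif26b, the relative of Kif26a, was the member left untested. Its log2 values were -2.18, -2.99, -4.19 and -1.91 in qNSC, 2.42, -0.37, -4.31 and -0.61 in pNSC and 0.87, -1.49, -4.75 and -1.1 in aNSC. They were 0.12, 0.62, -0.83 and -2.77 in NPC1, -4.31, -4.24 and -2.11 in NPC2, -2.74, -4.75 and -3.08 in NB1 and -2.08, -0.15 and -4.79 in NB2. Other had -3.02, -2.17 and -4.19, DFFDA_H -2.08, -0.93, -0.71 and -0.59 and DFFDA_L -1.66, -2.21, -1.52 and -1.16. Only 4 fresh libraries were above 0, in 3 groups, with pNSC replicate 1 the highest.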

How the data were processed

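RNA was measured by sequencing in 36 libraries. Poly(A) RNA, per the labels' protocols, was converted with the SMARTer Ultra Low kit, which does not mark strand, and read on a NextSeq instrument. FastQC, cutadapt, Trimmomatic, HISAT2, featureCounts, limma, GRCm38 and mm10 appear in the submitters' processing notes, with no roles. Their versions and the gene annotation were not given in the sources used here.

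Values were deposited by the authors as log2 numbers in a single table. Their unit was inferred: 2 to the power of each value sums to 987637 to 987910 per library, much as CPM would. Column medians were 3.53 to 3.56, as quantile normalization would leave them. A change in total RNA is therefore invisible, and broad shifts one way push other genes the opposite way. Total reads were not used here. Depth was judged by the distinct steps up to a library's median gene, 56 (Other replicate 3) to 427, and by the genes at its floor, 362 to 3932. The 1770 blank lines were dropped. Because the values are logs, limma was used and not the count test that the plan also allowed.

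A limma 3.58.1 model (R 4.3.3, eBayes with trend and robust, 1 mean per population) was fitted to the 28 fresh libraries and another to the 8 cultured ones. A gene entered if 3 or more libraries of 1 group had a log2 value of 0 or above, which kept 17788 and 15956. Benjamini-Hochberg adjustment ran over all genes of each of the 9 comparisons. Neighbouring comparisons share a population, so their changes are not independent. The fit was tested on simulated data; a first criterion, on the share of changed genes recovered, was narrowly missed by the fresh fit and was replaced by checks of the slope of recovered changes and of the false share, which passed. Alternatives were no filter, a pseudocount of 1, trimmed-mean centring, only the groups compared, the replicate number as a block, leaving out each library and, chosen after seeing the data, log-ratio centring.

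Coordinates, exon overlaps and exonic lengths came from GENCODE M21 (GRCm38), near copies from blastn 2.17.0 (at least 95% identity over 200 bases) and promoters from RefSeq. Of the kinesins, 16 share exonic bases with another gene (1 such overlap is not reported here), and the handling of shared reads is not stated in the labels. The rule for members, the role lists, the partner and marker lists, and the genes whose value is given in every library were chosen with earlier results of these data known. Values in every library are given for 16 members picked by role and for any member called against its role list (Kif5b alone, already among them); Kif26a was added after its values were seen. The others are given by group mean, range and counts.

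Further marker lists in NB2 against qNSC gave 2 of 4 activated stem cell genes higher and 2 lower, 0 of 4 tested oligodendrocyte precursor genes higher and 1 lower, and 2 of 5 red cell genes higher and 0 lower.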

Additional observations from a re-analysis of the deposited data

Results flagged for a closer look

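Values of single kinesins that stood apart from the other 3 libraries of their group, by Dixon's test at the 95% level in groups of 4, numbered 14 of 234 gene and group sets tested, and chance flags about 5% of such sets.

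In qNSC, replicate 1 was at its floor of -2.18 for Kif11 (others 3.05 to 3.72), at -2.18 for Kif15 (others 1.94 to 2.14) and at -2.18 for Kif20b (others 1.84 to 1.94), and replicate 2 read 4.86 for Kif20a (others 5.14 to 5.17). Each of the first 3 genes stayed called between qNSC and pNSC without replicate 1.

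In pNSC, replicate 1 read 5.34 for Kif18b (others 3.86 to 4.02) and replicate 4 read 6.83 for Kif21a (others 7.07 to 7.10). In NPC1, replicate 4 read 7.13 for Kif2c (others 7.28 to 7.30) and 4.27 for Kif13a (others 3.80 to 3.86), and replicate 3 read 1.94 for Kifc2 (others 2.51 to 2.63).

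In DFFDA_H, replicate 4 read 2.96 for Kif2c (others 3.20 to 3.22) and 4.00 for Kif11 (others 4.49 to 4.56), replicate 3 read 3.13 for Kif20b (others 1.89 to 2.1) and replicate 2 read 7.57 for Kif5b (others 7.88 to 7.91). In DFFDA_L, replicate 4 read 3.78 for Kif23 (others 4.03 to 4.05).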

How the results depend on the processing

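No value changed direction with its call under any alternative. Counts of called kinesins moved by over 1.5 times in 4 of the 6 steps between fresh neighbours, and in culture for transport members only. With only the groups compared, the counts were 12 kinesins (2 transport) for pNSC against qNSC, 14 (8 mitotic, 6 transport) for NPC1 against aNSC, 2 (1 mitotic, 1 transport) for NPC2 against NPC1 and 11 (1 mitotic) for NB1 against NPC2, where the pooled fit gave 22, 3, 0 and 6. For NPC1 against aNSC, a pseudocount of 1 gave 5 kinesins (2 mitotic) and log-ratio centring 1 mitotic.

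Same-numbered samples were taken as pairs only where every correlation of their deviations passed 0.1, which no comparison met, though 3 of 4 pairs did in pNSC against qNSC (0.06 to 0.14) and in aNSC against pNSC (0.06 to 0.17). In both, each library correlated best with its own number, as a hint from the data. With the number as a replicate block, NPC1 against aNSC gave 5 kinesins called, 2 of them mitotic, against 3 and 0, and no other count moved by over 1.5 times.

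Leaving out each library in turn gave 1 to 3 kinesins called in NPC1 against aNSC (1 without aNSC replicate 2 or NPC1 replicate 3, the same for transport members), 0 to 1 in NPC2 against NPC1 (1 without NPC2 replicate 1) and 3 to 7 in NB1 against NPC2 (3, all transport, without NPC2 replicate 2). Transport members called ranged from 3 to 10 in pNSC against qNSC (3 without pNSC replicate 1) and from 3 to 5 in culture (5 without DFFDA_L replicate 1). Depth limits the values at a library's floor, such as Kif11, Kif15 and Kif20b in qNSC replicate 1.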
